A study of Mus musculus
Rattus norvegicus and Mus musculus and Rattus norvegicus with 95 samples.

Results

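The cells described here are 20 single somatic cells taken from the testis of a rat chimaera that carried the allodiploid embryonic stem cell line RM2-1, set against 6 single stem cells of the same line. They were chosen by their column headings in the single-cell table, which holds 87 cells, in a series of 95 samples. An allodiploid embryonic stem cell (AdESC) is a hybrid with a single set of chromosomes from the mouse and another from the rat, so both groups carry the genomes of both species. A chimaera is an animal grown from a host embryo that received such stem cells. The labels call the testis cells somatic and give neither the animal's age nor the way its AdESC-derived cells were picked out, and each group is 1 line. Beside them stand 4 testis cells of RM1-1, also labelled somatic but grown in a mouse host, with 4 RM1-1 AdESC cells, 4 lung cells from a rat chimaera of RM2-1, 10 fibroblasts from a mouse chimaera of MR1-1, and the 6 and 8 AdESC cells of lines MR1-1 and MR2-1. The markers named for the testis cells were Tagln, Myl9, Cnn1 and Cav1, all found in every one of the 20 cells. The steroid enzymes Cyp11a1 and Cyp17a1 of Leydig cells and the Sertoli hormone gene Amh were at or near 0 in all 20, so "testis" below is the label.

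The somatic testis holds several kinds of cell. Peritubular myoid cells wrap the seminiferous tubules and contract through the smooth muscle actin and myosin system, and they lay down the basement membrane together with the Sertoli cells inside the tubule. Sertoli cells nurse the germ cells and make anti-Müllerian hormone in early life. Leydig cells lie between the tubules and make testosterone from cholesterol, beside fibroblast-like stroma and vessels.

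The table gives 13926 genes shared by mouse and rat, each in FPKM, a count of fragments corrected for the length of the transcript and the size of the library. A mouse and a rat copy of a gene share 1 value. Per cell, the 20 testis cells summed to 272134 to 406708 FPKM with 4384 to 5873 genes at 1 FPKM or more (median 5231.5), and the 6 AdESC cells to 329860 to 407477 FPKM with 4211 to 6246 such genes (median 5192). Read depth is unknown. Each group is 1 sample, so the comparison of the cells has no test. A difference is the mean of log2(FPKM + 1) over the testis cells minus that over the AdESC cells, and a gene is counted as higher or lower when that difference is at least 2. The added 1 understates the change of genes near 0, and a gene listed at 0 may be expressed below what these values show. The SD given beside a difference is over the 20 testis cells.

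The 4 marker genes separated the groups completely. Tagln (transgelin, an actin-bundling protein of smooth muscle; mm10 chromosome 9, 45929628 to 45936058) ran from 1553 to 6669 FPKM in the testis cells with a median of 3597, and stood at 0, 0, 0, 0, 0 and 0.171 FPKM in the AdESC cells. Its difference was 11.81 (SD 0.55), the widest of all genes past the filter. Every testis cell was thus high for Tagln and the AdESC cells were at or near 0.

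Myl9, the regulatory light chain of smooth muscle myosin (chromosome 2, 156775408 to 156781657), had a lowest, median and highest value of 313, 829 and 2196 FPKM in the testis cells, against 0, 0, 0, 0, 6.62 and 9.13 FPKM in the AdESC cells (difference 8.76, SD 0.70). Cnn1 (calponin, a regulator of actomyosin; chromosome 9, 22099221 to 22109221) had 18.3, 135 and 546 FPKM in the testis cells and was listed at 0 in all 6 AdESC cells (7.00, SD 1.29). Cav1, the caveolin that shapes membrane pits in muscle and stroma (chromosome 6, 17306335 to 17341328), had 14.1, 117 and 266 FPKM in the testis cells and 0 in all 6 AdESC cells (6.76, SD 1.06). The coordinates are those of the mouse copy in RefSeq. The groups did not overlap for any of the 4 genes, and Cnn1 and Cav1 varied more from cell to cell than Tagln and Myl9.

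**Figure D1:**
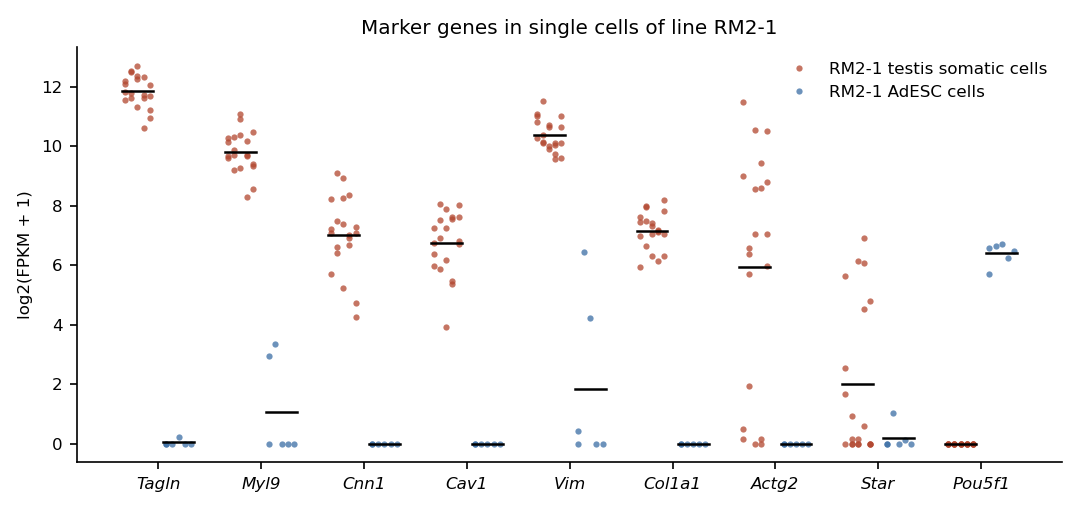
Expression of 9 genes, as log2(FPKM + 1) on the vertical axis, in each of the 20 RM2-1 testis somatic cells (red, left) and the 6 RM2-1 AdESC cells (blue, right), with a black bar at each mean. Tagln, Myl9, Cnn1, Cav1, Vim and Col1a1 are above every AdESC cell in every testis cell, Actg2 and Star are spread from 0 upward, and Pou5f1 is listed at 0 in all 20 testis cells.

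Across the table, 7788 genes had group means averaging at least 1 FPKM. Of these 717 (9.21%) were higher and 722 (9.27%) lower in the testis cells, and every testis cell was above every AdESC cell in 192 genes (2.47%) and below in 168 (2.16%). With a pseudocount of 0.1 the counts were 1393 higher and 1564 lower. The median difference of those 7788 genes was -0.22, and it was 0 over all 13926. Among non-overlapping genes the 12 largest differences upward were those of Tagln, Bgn, Ccl2, Myl9, Vim, Tpm2, Tpm1, Emp3, Anxa1, Anxa5, Fstl1 and Fhl2. The 12 largest downward were those of Bex1, Nanog, Tdh, Mt2, Gpx2, Mylpf, Trh, Dnmt3l, Apoe, Hprt, Gdf3 and Tfcp2l1. Tagln, Myl9, Tpm1 and Tpm2 of the first set are on the myoid list, and Nanog, Dnmt3l, Gdf3 and Tfcp2l1 of the second are on the pluripotency list. Hprt, a gene that most cells use, did not pass 0.144 FPKM in any of the 63 differentiated cells of the table. How mouse and rat values were joined, for Hprt or any other gene, is not given in the sources used here. The part of this joining in the Hprt difference was not tested, and its place in the second set is not read as a change in expression.

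**Figure D2:**
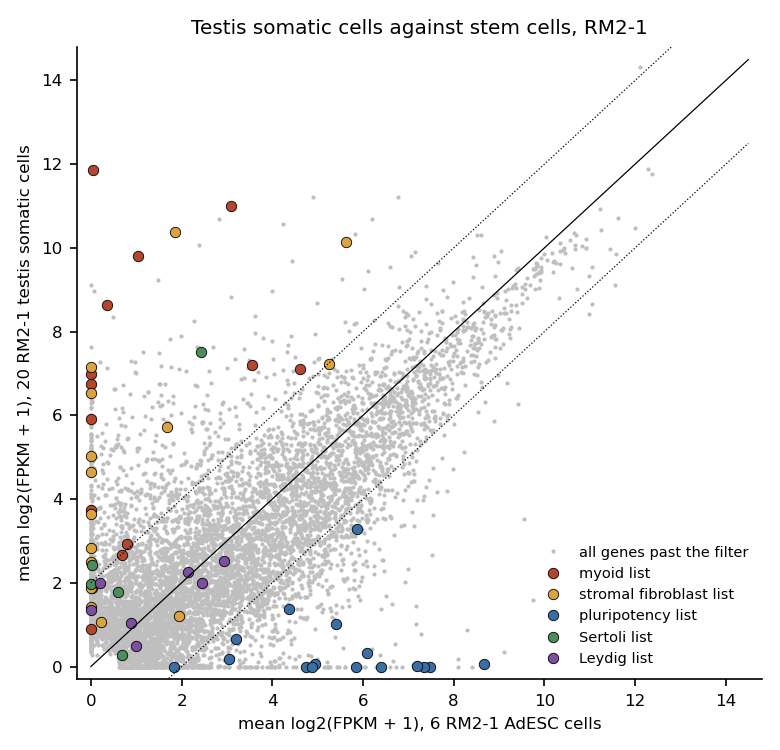
Mean log2(FPKM + 1) of the 20 RM2-1 testis somatic cells (vertical) against that of the 6 RM2-1 AdESC cells (horizontal) for the 7788 genes past the filter, grey, with the members of 5 lists in colour. The solid line marks equal means and the dotted lines a difference of 2. Members of the myoid list lie above the upper dotted line or between the lines and pluripotency members lie below the lower one, except 1 within the lines.

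The myoid list held 18 genes, of which 14 were measured and 13 passed the filter; Acta2, Myh11, Mylk and Cald1 are not analysed here. In the testis cells 11 of the 14 were higher, against a background of 9.21%, and 9 did not overlap with the AdESC cells. Tagln, Myl9, Cnn1 and Cav1 are in both counts and in the list's median and mean. They were already named as markers of these cells, so setting these counts against the background is not independent of that choice. The other higher members were Tpm1, Tpm2, Actg2, Lmod1, Csrp1, Actn1 and Des. The list's median difference was 4.83. Averaged over the 14 genes, a testis cell stood between 5.46 and 7.00 on the log2 scale (median 6.05), and an AdESC cell between 0.59 and 1.63. Every one of the 20 cells was therefore well above every stem cell for the list as a whole.

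The tropomyosins, which wind along actin filaments, were among the strongest members. Tpm1 had 1010, 1916 and 5001 FPKM as lowest, median and highest testis value, against 0, 0.196, 1.42, 24.9, 51.3 and 95.7 FPKM in the AdESC cells (7.90, SD 0.61). Tpm2 had 236, 377 and 847 FPKM in the testis cells, against 0, 0, 0, 0.174, 0.237 and 2.06 FPKM in the AdESC cells (8.28, SD 0.43). Csrp1, a LIM protein of smooth muscle, was 3.65 higher in the testis cells and Actn1, an actinin that crosslinks actin, 2.51 higher. Lmod1, a nucleator of smooth muscle actin filaments, was lower in level, at 0.434, 13.8 and 54.4 FPKM in the testis cells and 0 in all 6 AdESC cells.

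Other contractile genes were present in some testis cells only. Actg2, the enteric smooth muscle actin, reached 1 FPKM in 15 of the 20 testis cells and 10 FPKM in 14, with a lowest, median and highest value of 0, 114 and 2849 FPKM, and was 0 in all 6 AdESC cells. Des (desmin, the muscle intermediate filament) reached 1 FPKM in 11 of 20 testis cells with a highest value of 245 FPKM, and 1 of the 6 AdESC cells held it at 25.3 FPKM. Myocd, the coactivator that switches on smooth muscle genes, reached 1 FPKM in 6 of 20 testis cells (highest 19.3 FPKM) and was 0 in the AdESC cells. Synpo2, an actin-binding protein of muscle Z-discs, stayed at or below 0.46 FPKM in the testis cells and was listed at 0 in the AdESC cells. The contractile genes thus fell into a set seen in every cell and a set seen in part of the cells.

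The stromal fibroblast list held 19 genes, 18 of them measured and 16 past the filter; Fbln2 is not analysed here. In the testis cells 10 of 18 were higher, against a background of 9.21%, and the list's median difference was 2.66. No overlap was seen for 7 members, against 2.47% of all genes past the filter. The per-cell list mean ran from 3.50 to 5.43 in the testis cells and from 0.73 to 1.49 in the AdESC cells. Col1a1, a chain of type I collagen, had 60.3, 142 and 289 FPKM in the testis cells and 0 in all 6 AdESC cells (7.16, SD 0.63). Its partner Col1a2 had 31, 104 and 161 FPKM in the testis cells and 0 in the AdESC cells. The fibrillar collagen Col3a1 had 8.00, 34.6 and 121 FPKM in the testis cells and 0 in the AdESC cells. All 3 collagens were therefore seen in every testis cell and in no stem cell of the line.

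Vim, the intermediate filament of mesenchymal cells, had 760, 1198 and 2918 FPKM in the testis cells, against 0, 0, 0, 0.326, 17.8 and 85.6 FPKM in the AdESC cells (8.53, SD 0.54). Sparc, a collagen-binding matrix protein, had 553, 1158 and 1803 FPKM in the testis cells, against 2.35, 41.9, 55.3, 79, 80.9 and 268 FPKM in the AdESC cells (4.52, SD 0.47). Other members of the stromal list ran from Nr2f2, Gsn and Mgp, at 4.65, 4.04 and 3.65 higher on average, to Fbln1, with a difference of -0.75. Some genes of that list were patchy or at 0 in the testis cells. Dcn (decorin, a small collagen-binding proteoglycan) reached 1 FPKM in 12 of 20 testis cells with a median of 3.84 FPKM, Tcf21, a bHLH factor of gonadal stroma, in 11, and the growth factor receptor Pdgfra in 11. Lum, another small proteoglycan, was 0 in 16 of 20 testis cells, and Dpt, a fibroblast matrix protein, was 0 in all 20. Dcn, Tcf21, Pdgfra, Lum and Dpt were listed at 0 in all 6 AdESC cells.

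Genes of actin and focal adhesion, of matrix and of TGF-beta, BMP and YAP signalling were widely higher in the testis cells. The actin and focal adhesion list had 12 of 19 members higher, against a background of 9.21%, and a median difference of 2.75. Whatever the size of their difference, 12 members did not overlap, against 2.47% of all genes past the filter. Fhl2, a LIM protein of focal adhesions, had 76.3, 199 and 377 FPKM in the testis cells and 0 in all 6 AdESC cells. Parva and Ilk, partners in the complex that links integrins to actin, were 6.02 and 4.97 higher in the testis cells, and Actb, cytoplasmic actin, 2.22 higher (chosen after its values were seen). The extracellular matrix list had 14 of 19 members higher and a median of 3.79, and 10 members did not overlap. Its highest member was the X-linked proteoglycan Bgn (biglycan), at 159, 651 and 916 FPKM in the testis cells and 0 in all 6 AdESC cells (9.12, SD 0.64). Lox, which crosslinks collagen, and the type IV and V collagen chains Col4a1 and Col5a2 were 5.79, 5.53 and 5.55 higher, with all 6 AdESC cells at 0.

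The TGF-beta, BMP and YAP list gave 14 of 24 members higher and 1 lower, against backgrounds of 9.21% and 9.27%, with a median of 2.98. The ligand subunit Inhba had 4.39, 134 and 345 FPKM in the testis cells and 0 in all 6 AdESC cells. The coactivator Tgfb1i1 had 60.8, 124 and 217 FPKM in the testis cells and 0 in the AdESC cells. Ankrd1, a nuclear target of YAP, spanned 0.33 to 1221 FPKM over the testis cells, so it was among the most variable genes.

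Secreted signals and membrane-binding proteins formed a further group. Of 12 chemokine and cytokine genes 6 were higher in the testis cells, against a background of 9.21%. The list median was 3.27, and 5 members did not overlap, against 2.47% of all genes past the filter. Ccl2, which draws monocytes, had 3.43, 411 and 6350 FPKM in the testis cells, against 0, 0, 0, 0, 0 and 0.293 FPKM in the AdESC cells. Cxcl12, which guides stem cells and leukocytes, had 8.73, 98.2 and 420 FPKM in the testis cells and at most 0.0703 FPKM in the AdESC cells. Tnfrsf12a, the receptor of the cytokine TWEAK, was 5.73 higher, while Il6 reached 1 FPKM in 5 of 20 testis cells and Cxcl10 in none. Annexins, S100 proteins and galectins had 13 of 15 members higher, and 11 members did not overlap (median 5.29). Anxa5 had 352, 603 and 989 FPKM in the testis cells, against 0, 0, 0, 0, 17.8 and 23.6 FPKM in the AdESC cells, and the lectin Lgals1 was 6.35 higher. In the list of IGF and other growth factor genes 6 of 20 were higher and 2 lower (median 0.63). With 16 of the 20 past the filter, the latter is not far above the background of 9.27%. There the matrix-bound Igfbp7 was 5.97 higher and the receptor kinase Axl 5.48 higher, whereas Igfbp2 had a difference of -4.79.

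The hormone and receptor genes that define Sertoli cells were at 0 in the testis cells. The list held 22 genes, 20 measured and 5 past the filter, and Sox9 and Rhox5 are not analysed here. Clu and Gata4 were higher, 2 of the 20 measured and 2 of the 5 past the filter. The background of 9.21% is over genes past the filter, and 5 genes are too few to set against it. The list's median difference was 0, and the per-cell mean was 0.29 to 1.23 in the testis cells and 0 to 0.62 in the AdESC cells. The anti-Müllerian hormone gene Amh and the follicle-stimulating hormone receptor Fshr were listed at 0 in all 20 testis cells and all 6 AdESC cells. In all 9 measured members were 0 in every testis cell, the inhibin subunit Inha and the tight junction gene Cldn11 among them. Dhh, the hedgehog ligand of Sertoli cells, reached 2.69 FPKM in 1 testis cell and was 0 in the other 19.

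The 2 members that were higher are not made by Sertoli cells alone. Clu, a secreted chaperone that many stressed or mesenchymal cells make, had 5.86, 210 and 1926 FPKM in the testis cells, against 0, 0, 0.0849, 5.36, 21 and 154 FPKM in the AdESC cells, so the groups overlapped. Gata4, a zinc finger factor of several gonadal somatic cells, reached 1 FPKM in 14 of 20 testis cells (0.0391, 4.02 and 28.1 FPKM as lowest, median and highest) and stood at 0.0585 FPKM or below in the AdESC cells. Kitl, the ligand of Kit, reached 1 FPKM in 12 of 20 testis cells, and 1 AdESC cell held 10.4 FPKM.

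The defining genes of Leydig cells were at or near 0 as well, apart from Star. The list held 15 genes, 12 measured and 7 past the filter, with Hsd3b1, Hsd3b6 and Cyp11b1 not analysed here. No member was higher or lower, the median was 0, and the per-cell means overlapped, at 0.12 to 1.99 in the testis cells and 0.36 to 1.39 in the AdESC cells. Cyp17a1, the steroid 17-alpha-hydroxylase, the hormone gene Insl3 and the luteinising hormone receptor Lhcgr were 0 in all 20 testis cells, as was the testosterone-forming Hsd17b3. In the AdESC cells those genes were 0 too, apart from 1 cell with Insl3 at 1.21 FPKM. Cyp11a1, which cuts the cholesterol side chain, did not pass 0.45 FPKM in any testis cell, and 1 AdESC cell held 5.89 FPKM.

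Star, which carries cholesterol into mitochondria, was the exception. It reached 1 FPKM in 8 of 20 testis cells and 10 FPKM in 6, with a median of 0.31 and a highest value of 119 FPKM, against 0, 0, 0, 0, 0.0866 and 1.04 FPKM in the AdESC cells. Its mean difference of 1.81 (SD 2.59) stayed under 2. Nr5a1 (steroidogenic factor 1) reached 1 FPKM in 9 of 20 testis cells (highest 19.5 FPKM) and was 0 in the AdESC cells. Over the 20 cells the Leydig list mean moved with the number of genes at 1 FPKM or more (Pearson r = 0.65), and its part in the list's spread was not tested.

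Transcription factors of the gonadal soma were seen in part of the cells. Of 20 measured members of that list 5 were higher, against a background of 9.21%, with a median of 0.77. Nr2f2 (COUP-TFII, a factor of interstitial and stromal cells) reached 1 FPKM in 19 of 20 testis cells, at 0.312, 27.2 and 87.2 FPKM, and was 0 in all 6 AdESC cells. Maf, a bZIP factor of fetal interstitial progenitors in the mouse, reached 1 FPKM in 13 testis cells, Lhx9, a LIM homeodomain factor of the early gonad, in 11 and Wt1, a zinc finger factor of gonad and kidney, in 11, and all 3 were 0 in the AdESC cells. Meis1, a homeodomain factor outside the list and chosen after its values were seen, was at 6.89, 78.6 and 178 FPKM in the testis cells and 0 in the AdESC cells. Esr1, the oestrogen receptor, was 0 in all 20 testis cells.

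**Figure D3:**
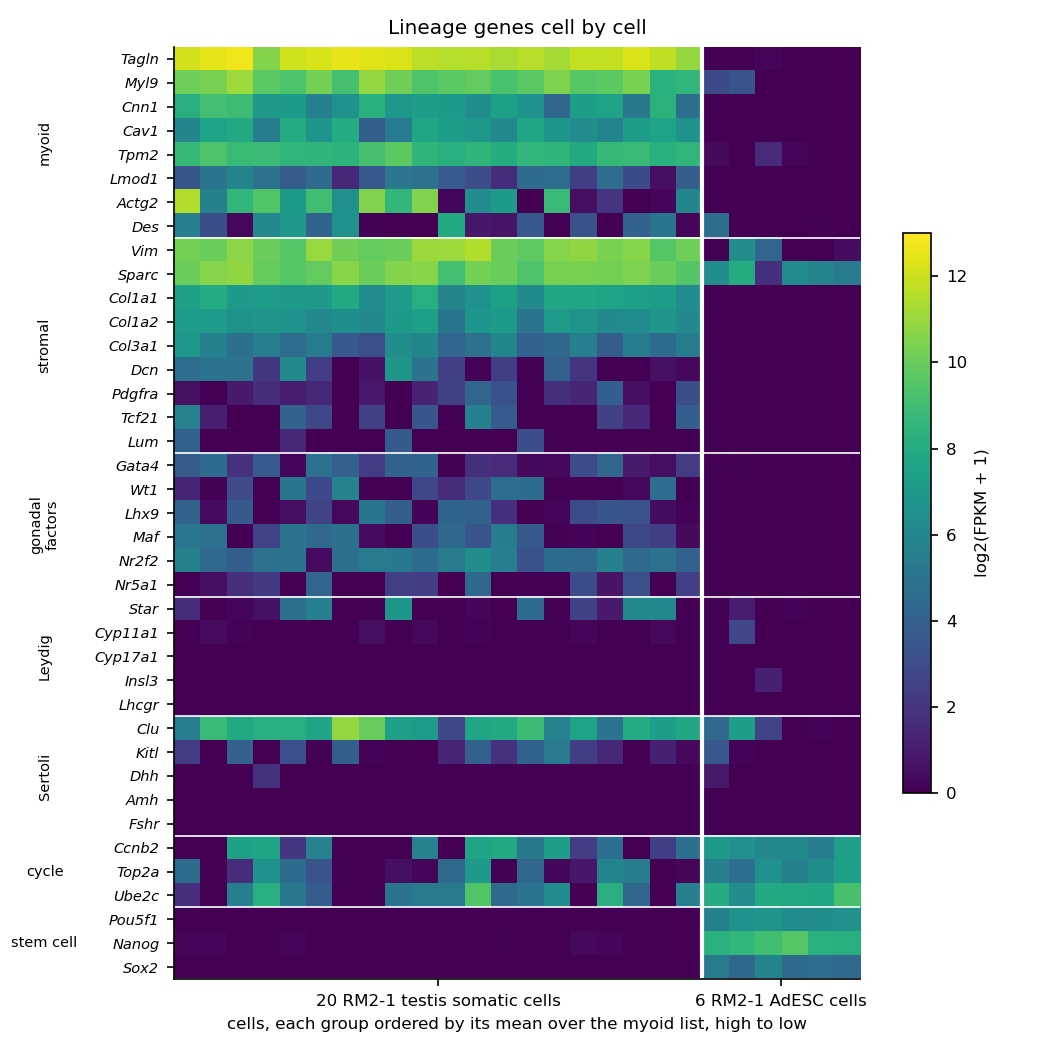
Heat map of log2(FPKM + 1) for 39 genes (rows, grouped by list) in the 20 RM2-1 testis somatic cells (left) and the 6 RM2-1 AdESC cells (right), each group ordered by its myoid list mean. Tagln, Myl9, Cnn1, Cav1, Tpm2 and the collagens fill every testis column, Actg2, Des, most gonadal factors and the cell cycle genes fill some columns, and Cyp17a1, Lhcgr, Amh and Fshr are at 0 throughout.

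Most germ cell, leukocyte and epithelial markers were at or near 0 in the testis cells, while some endothelial, pericyte and neural genes were present. Of 16 germ cell genes 14 were 0 in all 20 cells; the other 2 included the germline helicase Ddx4, which reached 1 FPKM in 2 cells (highest 32.5 FPKM). In that list 5 members were lower than in the AdESC cells, against a background of 9.27% lower, for example the RNA-binding Dazl, at 0 in all 20 testis cells against 0.36, 1.68, 7.61, 8.6, 16.7 and 258 FPKM in the AdESC cells. Of 15 leukocyte genes 10 were 0 in every testis cell and 1, Laptm5, was lower than in the AdESC cells. The summed level of the leukocyte list, as a mean per cell, was at most 0.28 in the testis cells and between 0.26 and 0.64 in the AdESC cells, and the leukocyte receptor gene Ptprc reached 6.39 FPKM in 1 testis cell. Of 9 endothelial genes Pecam1 was lower, at 0 in all 20 testis cells against 4.04 to 42.4 FPKM in the AdESC cells. Flt1, a receptor of vascular endothelial growth factors, went the other way without reaching the size threshold (1.36, SD 1.43). It was 1 FPKM or more in 13 of 20 testis cells, at 0.058, 4.50 and 17.9 FPKM as lowest, median and highest, against 0, 0, 0, 0, 0.344 and 15.7 FPKM in the AdESC cells. The list's highest mean was 0.92 in the testis cells and 1.37 in the AdESC cells.

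Pericytes share contractile genes with myoid cells. In the pericyte list Mcam, an adhesion molecule of vessel walls, was higher (3.38, reaching 1 FPKM in 18 of 20 testis cells) and was the only one of 8. Rgs5, a pericyte regulator of G proteins, was 0 in all 20 testis cells, Pdgfrb reached 1 FPKM in 12 and Cspg4 in 11. Of 9 epithelial genes 5 were lower, against a background of 9.27%. The adhesion molecules Epcam and Cdh1 were 0 in all 20 testis cells against 35.4 to 186 FPKM and 4.68 to 44.8 FPKM in the AdESC cells. The neural list had 1 of 9 lower, the tubulin regulator Stmn2, and its mean ran from 0 to 1.58 in the testis cells and from 0.45 to 1.46 in the AdESC cells. The leukocyte, endothelial, pericyte and neural lists had 1 call each, among 2, 5, 4 and 2 genes past the filter. These are too few to set against the background, which is over genes past the filter. The part of these cell types in the other results was not tested. The erythroid list had 1 measured gene, Slc4a1, at 0 in both groups.

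Pluripotency genes were at or near 0 in most testis cells or lower than in the AdESC cells. Of 16 measured pluripotency genes 15 were lower, against a background of 9.27%, with a median of -4.89. No overlap was seen for 12, against 2.16% of all genes past the filter, and 7 were 0 in all 20 testis cells. Pou5f1 was 0 in all 20 testis cells, against 51.3, 75.1, 87.4, 94.5, 98.2 and 105 FPKM in the AdESC cells. Nanog was at most 0.222 FPKM in the testis cells, against 285, 314, 314, 393, 532 and 770 FPKM in the AdESC cells. Sox2 was 0 in all 20 testis cells, against 20.3 to 56.5 FPKM in the AdESC cells. Pou5f1, Nanog and Sox2, the core factors of embryonic stem cells, were thus at or near 0 in every testis cell.

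Some of the widest downward differences lay outside that list. Tdh, the mouse threonine dehydrogenase on which embryonic stem cells rely, was 0 in all 20 testis cells, against 178 to 715 FPKM in the AdESC cells. The metal-binding Mt2 and Mt1 (Mt1 chosen after its values were seen) had differences of -8.15 and -6.04. In the testis cells the X-linked gene Bex1 was 0 in 14 of 20 and at most 14.7 FPKM, against 306 to 1255 FPKM in the AdESC cells. The lipid carrier Apoe was 0 in 11 testis cells, against 144 to 539 FPKM in the AdESC cells. Of 11 glycolysis genes 3 were lower (median -1.46), against a background of 9.27%. Among them was the glucose transporter Slc2a3, with a difference of -5.80 and 18 testis cells at 0. Pkm, pyruvate kinase, differed by -1.72 with no overlap, at 290, 524 and 806 FPKM in the testis cells and 1304 to 2134 FPKM in the AdESC cells. Of 11 imprinted genes 2 were higher and 2 lower (Igf2r and Snrpn). Only 5 of the 11 passed the filter, too few to set against the backgrounds of 9.21% and 9.27%. Of those higher, Ndn, a paternally expressed gene, was at 41.3, 88.9 and 208 FPKM in the testis cells against 0, 0, 0, 1.42, 3.52 and 15.6 FPKM in the AdESC cells.

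Cell cycle genes divided the testis cells. Of 15 mitosis genes 13 were lower on average (median -2.90), against a background of 9.27%, but no member separated the groups. The mitosis list mean ran from 0.05 to 6.93 in the testis cells and from 4.71 to 6.76 in the AdESC cells, and it was 2 or more in 12 of 20 testis cells and 6 of 6 AdESC cells. Top2a, the topoisomerase of dividing cells, reached 1 FPKM in 10 testis cells with a highest value of 131 FPKM, against 25.4 to 160 FPKM in the AdESC cells. Ccnb2, a cyclin of mitotic entry, was 0 in 7 testis cells and reached 239 FPKM in another, against 45.3 to 161 FPKM in the AdESC cells. Replication genes were lower in 11 of 17 (median -2.70), with Mcm7, a subunit of the replicative helicase, at 1.01, 16.1 and 88.1 FPKM in the testis cells and 122 to 193 FPKM in the AdESC cells. The p53 and CDK inhibitor list had 2 of 14 higher (12 past the filter), Ccnd2 and Btg2, a count not far above the background of 9.21%. Immediate early genes had 5 of 12 higher (median 1.75), such as Ier3, at 27.9, 165 and 537 FPKM in the testis cells against 2.4 to 19.4 FPKM in the AdESC cells, and Fos, at 0 in 3 testis cells and up to 143 FPKM in the others.

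By the median, the 20 cells resembled each other more than the 4 samples they were set against. Pearson's r between 2 testis cells, over the 7788 genes past the filter on the log2 scale, was 0.64 to 0.76 (median 0.70). Its median was 0.52 with RM2-1 AdESC cells, 0.62 with RM2-1 lung cells, 0.61 with RM1-1 testis cells and 0.56 with MR1-1 fibroblasts. Single pairs overlapped, reaching 0.73 with lung and 0.67 with RM1-1 testis cells. The filter used RM2-1 testis and AdESC cells only, so genes low in both are left out even if high in another sample. These are descriptions, since genes are not independent and the cells share a source. The SD over the 20 testis cells had a median of 1.38 over the 7788 genes, against 1.28 over the 6 AdESC cells.

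Among the 3021 genes with a testis mean of at least 3 on the log2 scale, the widest spread was that of Actg2 (SD 3.99). It was followed by the neutrophil chemokine Cxcl1 (3.55), the secreted glutathione peroxidase Gpx3 (3.34), Serpinf1, an inhibitor of vessel growth (3.18), Ccnb2 (3.16), Prrg4 (3.10), the microfibril protein Mfap2 (3.05) and Ankrd1 (3.04). Gpx3 had a lowest, median and highest value of 0, 155 and 739 FPKM in the testis cells, and Mfap2 had 0, 11.1 and 188 FPKM. The most even genes were Cox5b (0.23), Rpl35 (0.23), Rbm3 (0.23), Rpl19 (0.24) and Cox6a1 (0.24), of respiration, translation and RNA binding. Tagln (0.55) and Col1a1 (0.63) thus lay far nearer to the even genes than Actg2 or Cxcl1 did.

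**Figure D4:**
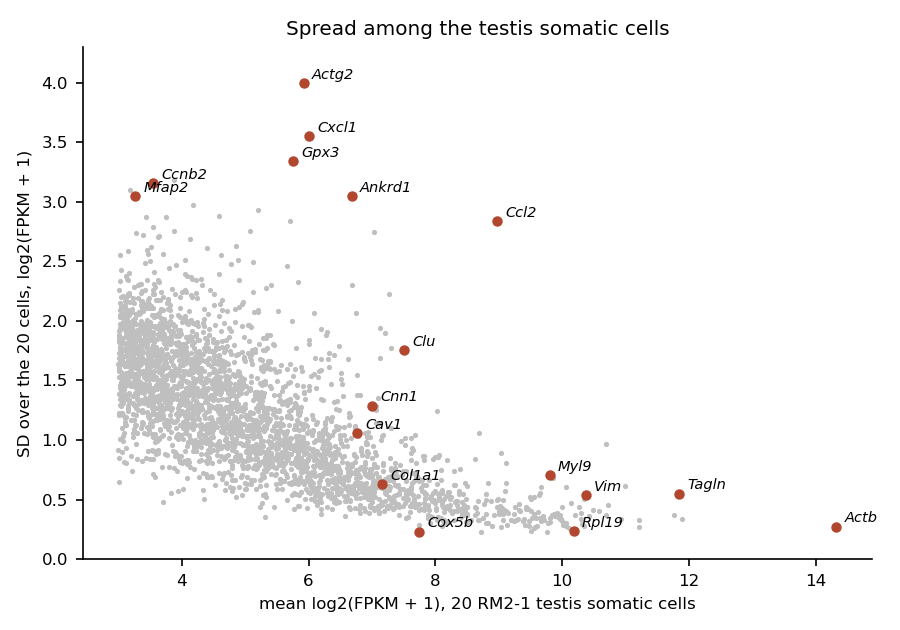
SD of log2(FPKM + 1) over the 20 RM2-1 testis somatic cells (vertical) against the mean over the same cells (horizontal), for genes whose mean is 3 or more, with 17 genes named. Actg2, Cxcl1, Gpx3 and Ankrd1 stand above 3 while Tagln, Vim and Col1a1 lie below 0.7.

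Several genes varied together over the 20 cells, given as descriptions because the cells share a source. The myoid and stromal list means moved together (Pearson r = 0.64), while neither followed the number of genes at 1 FPKM or more (r = -0.07 and 0.22). Col1a1 moved with Col1a2 (0.76) and Ccl2 with the related chemokine Ccl7 (0.76) and with Cxcl1 (0.55). Wt1 moved with Gata6, another GATA factor (0.65), and with Maf (0.58), Igf1 with Maf (0.64), and Actg2 with Dcn (0.52). Tagln ran against Pdgfra (-0.53) and Star against Pdgfra (-0.47). Other pairs looked at were weaker. Among the markers Tagln followed Myl9 (0.48) and Cnn1 (0.44) more than Cav1 (0.18). Nr5a1 with Star (0.22) and Col1a1 with Col3a1 (0.31) moved together weakly, and Des ran against Actg2 (-0.28). Of 3011 genes outside the myoid list, those most like the mean of the 4 markers were Fermt2 (0.68), Pdlim5 (0.66), Myl6 (0.66), Atp6v0c (0.65) and Lpp (0.64). They encode a kindlin of integrin adhesions, a PDZ-LIM protein of actin fibres, a myosin light chain, a subunit of the proton pump and a LIM protein of focal adhesions. As the highest of 3011 values over 20 cells they were picked for size, and how high unrelated genes would reach was not tested.

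Other differentiated samples of the table were set beside the 20 cells. In the myoid list mean the RM2-1 testis cells (5.46 to 7.00) stood above all 4 RM1-1 testis cells (2.04 to 2.78) and all 10 MR1-1 fibroblasts (0.62 to 3.19), and overlapped with the RM2-1 lung cells (2.32 to 6.57). The stromal list mean of the RM2-1 testis cells (3.50 to 5.43) was above the RM1-1 testis cells (1.62 to 2.00) but overlapped with lung (2.00 to 4.34) and fibroblasts (0.99 to 4.66). For the gonadal transcription factor list their mean (0.73 to 1.89) overlapped with RM1-1 testis (0.43 to 1.05), lung (0.51 to 1.46) and fibroblasts (0.37 to 1.30). Cyp11a1, at 0.45 FPKM or less in all 20 RM2-1 testis cells, was at 1868 and 2242 FPKM in 2 lung-labelled cells, which stood highest in the Leydig list. The same smooth muscle genes were seen in lung: Tagln was at 4.21, 452, 4201 and 4902 FPKM and Cnn1 at 0.803, 1.49, 80.3 and 113 FPKM in its 4 cells.

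**Figure D5:**
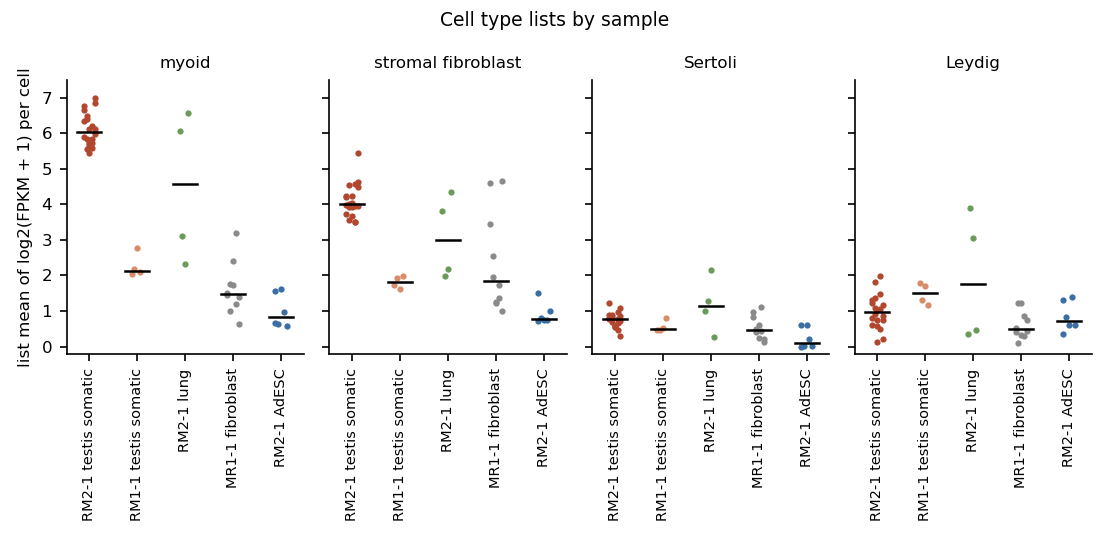
Mean of log2(FPKM + 1) over the measured genes of the myoid, stromal fibroblast, Sertoli and Leydig lists in each cell, by sample, with a bar at the median. The 20 RM2-1 testis cells lie above the RM1-1 testis cells, the fibroblasts and the AdESC cells in the myoid panel, and among the other samples in the Sertoli and Leydig panels.

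The 4 cells labelled as somatic testis of RM1-1 went another way, and the label was not borne out by gonadal genes. Wt1, Lhx9, Nr5a1, Amh and Fshr were 0 in all 4 and Gata4 was at most 0.0473 FPKM. Sox2, a factor of stem cells and neural progenitors, was 0 in all 20 RM2-1 testis cells and stood at 4.04, 12.3, 14.9 and 34.1 FPKM in the RM1-1 testis cells. Cav1 was high in both samples (11.2, 84.5, 137 and 251 FPKM in RM1-1 testis), but Cnn1 was at 0, 0.118, 0.337 and 6.12 FPKM and Col1a1 at 0.0433 FPKM or less. Against their own AdESC cells the RM1-1 testis cells differed by 4.38 for Tagln and 4.18 for Myl9. In RM1-1 9.67% of the genes past its filter were higher and 11% lower. Of 6788 genes past the filter in both lines, 592 were higher in RM2-1 and 624 in RM1-1, and 233 in both, which is 39.4% of the first set and 37.3% of the second. Downward the counts were 708 and 812, with 331 in both (46.8% and 40.8%). Opposite directions past a difference of 2 were found for 15 of the genes higher in RM2-1 testis and 3 of those lower. No test of the difference between the lines was possible with 1 sample each, and the line cannot be told apart from the host, a rat for RM2-1 and a mouse for RM1-1.

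The fit over samples was the only one with a test: limma on the mean log2(FPKM + 1) of each sample, with the 2 testis samples, 1 from a rat and 1 from a mouse host, against the 4 AdESC samples. It called 697 genes higher (8.67%) and 775 lower (9.64%) in testis, of 8042 tested at an adjusted p under 0.05. With the line as a block 350 were higher and 407 lower, and 700 of the 1472 calls remained. There the MR1-1 and MR2-1 samples, with no testis sample of their line, do not bear on the difference. Of the myoid and stromal lists the block fit called 6 and 5 genes higher. The RM2-1 cells enter both fits too, so neither stands apart from the comparison above. Without the RM1-1 testis sample, where the RM2-1 sample alone is assumed to vary as the AdESC samples do, 840 were higher and 712 lower, and without the RM2-1 testis sample 907 and 500. Leaving out the AdESC sample of RM2-1, RM1-1, MR1-1 or MR2-1 gave 373, 421, 390 and 367 higher and 441, 455, 501 and 465 lower.

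In the limma fit Tagln rose by 8.05 ± 1.46 (SE, adjusted p = 0.00434), Myl9 by 6.63 ± 1.08 (adjusted p = 0.00237), Cav1 by 6.49 ± 0.49 (adjusted p = 1.65e-05) and Tpm1 by 5.36 ± 0.87 (adjusted p = 0.00227), each in both samples and with any 1 sample left out. Cnn1 did not pass (3.77 ± 1.23, limma adjusted p = 0.0558, or 0.000926 without the RM1-1 testis sample and 0.0280 with the line as a block). Col1a1 did not pass either (3.36 ± 1.40, limma adjusted p = 0.117, or 0.0008 without the RM1-1 sample and 0.0326 with the block). By limma 8.67% of all tested genes were called higher, so 1 call in a list of 5 or 6 genes is near that share. Of the myoid list 5 of 12 tested genes rose by limma, with the already named markers Tagln, Myl9 and Cav1 among them. Of the stromal list 4 of 14 rose, of the Sertoli list 1 of 5 (Clu), and of the Leydig list 1 of 6 (Star). Without the RM1-1 testis sample those counts were 11, 13, 3 and 1. With the line as a block 4, 3, 1 and 0 of the calls remained, and with each of the 6 samples left out in turn 5, 3, 1 and 0. The calls lost were those of Smtn, smoothelin of the contractile skeleton (limma adjusted p = 0.0101, or 0.125 with the block), of Fn1, the matrix protein fibronectin (limma adjusted p = 0.0435, or 0.220 with the block and 0.101 without the RM2-1 testis sample), and of Star. Star rose by 1.43 ± 0.40 (limma adjusted p = 0.0330), a call lost with the line as a block (adjusted p = 0.218) and, at its highest, 0.0894 with 1 sample left out.

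Genes that rose in both samples by limma also included Vim (9.48 ± 0.59, adjusted p = 4.02e-06), Anxa5 (7.09 ± 0.56, adjusted p = 2.16e-05), Lgals1 (6.64 ± 0.40, adjusted p = 3.72e-06), Axl (5.03 ± 0.49, adjusted p = 0.000118) and Clu (5.07 ± 0.54, adjusted p = 0.000169). Nanog fell by 8.62 ± 0.39 (limma adjusted p = 1.06e-06), Tdh fell by 8.16 ± 0.39 (limma adjusted p = 1.06e-06) and Pou5f1 fell by 6.19 ± 0.43 (limma adjusted p = 7.51e-06). Of all tested genes limma called 8.67% higher and 9.64% lower. By list, limma called 15 of 16 pluripotency genes lower, 11 of 15 mitosis genes lower, 12 of 17 replication genes lower, 10 of 18 matrix genes higher, 12 of 19 actin and adhesion genes higher, 10 of 15 annexins, S100 proteins and galectins higher and 4 of 10 gonadal transcription factors higher. In the same order 14, 9, 10, 8, 9, 10 and 2 of these calls remained with the line as a block, and 13, 6, 7, 3, 6, 8 and 2 with each sample left out in turn. In the lists of other cell types limma called 6 of 8 germ cell genes, 5 of 8 epithelial genes, 1 of 2 leukocyte genes, 1 of 4 endothelial genes and 1 of 4 neural genes lower, and 1 pericyte gene of 1, Mcam, higher. The single calls there, in lists of 1 to 4 genes, are too few to set against the shares of all tested genes. Of the germ cell calls 3 remained with the block and 2 with each sample left out in turn, and of the epithelial calls 4 and 4. The neural call did not remain without the RM2-1 testis sample, while the leukocyte, endothelial and pericyte calls remained in all of these fits.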

How the data were processed

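Single-cell and bulk RNA sequencing of mouse-rat AdESCs and their derivatives was deposited as FPKM by the authors. The submitters' processing notes list the builds mm10 and rn5 and the tools Cufflinks 2.1.1, TopHat2 2.0.10 and FastQC 0.10.1; how the mouse and rat values of a homologue were joined is not given in the sources used here. No read depth can be had from FPKM. Groups came from column headings, which carry no cell number. No columns were identical. From the FPKM values log2(FPKM + 1) was computed per cell (numpy 2.4.6, pandas 2.3.3), with a filter at a mean of 1 FPKM over the 2 groups and a size threshold of 2. Sample means were fitted with limma 3.58.1 (R 4.3.3) with a trend and Benjamini-Hochberg adjustment, tested on simulated data. No label gives separate cultures or days, so a p-value covers the spread of these samples alone, which may be technical. Lines RM2-1 and RM1-1 gave both a testis and an AdESC sample and were used as a block; their deviations correlated at 0.013 and 0.026. Chromosomes came from RefSeq on GRCm38.p6 for all but 34 genes. The members and the 25 gene lists (422 entries, 356 measured) were chosen with earlier results of these data known. Named genes are the markers and defining list genes, the 12 widest differences each way, up to 4 genes per other list, the 8 most and 5 least variable genes, and the 5 most like the markers; further list members named in the text were chosen after their values were seen. Bulk libraries and other samples were not used beyond those named. Some results are not reported here.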

Additional observations from a re-analysis of the deposited data

Results flagged for a closer look

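Every testis cell of RM2-1 was above the mean of its AdESC cells for Actn1, by 2.51 on the log2 scale, while every RM1-1 testis cell was below the mean of its own AdESC cells, with a difference of -1.29. The difference between the lines was not tested. Anxa1, which binds membranes, differed by 7.86 in RM2-1 and -2.99 in RM1-1, though 1 RM1-1 testis cell stood at 131 FPKM.

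Single AdESC cells of RM2-1 stood apart from the other 5 for 25 of the 129 named genes and 3 of the 25 lists. Chance flags about 1 in 20 groups, and genes at 0 in the other cells are flagged by any value. In 12 of the 25 genes the cell that stood apart was the only one at 1 FPKM or more. On the log2(FPKM + 1) scale, high single cells were found for Des (4.72), Actn1 (6.23), Flt1 (4.06), Gpx3 (3.52), Kitl (3.51), Serpinf1 (3.24), Parva (3.22), Emp3 (2.86), Cyp11a1 (2.78), Gata6 (2.55), Prrg4 (2.02) and Tpm2 (1.62). Smaller ones were found for Insl3 (1.15), Star (1.03), Dhh (0.86), Lpp (0.84), Ccl2 (0.37), Fos (0.29), Pdgfrb (0.29), Tagln (0.23), Rgs5 (0.19), Cxcl12 (0.098), Mcam (0.090) and Gata4 (0.082), and Rpl35 had a low cell (9.44). The stromal list mean had a high cell (1.49), the pericyte list mean a high cell (0.60), and the chemokine list mean a low one (0).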

How the results depend on the processing

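With a pseudocount of 0.1 the RM2-1 comparison gave 1393 genes higher and 1564 lower and the RM1-1 comparison 1390 and 1746, and the medians of the myoid and stromal lists were 7.72 and 4.66. A size threshold of 1 gave 1689 higher and 2131 lower, and one of 3 gave 350 and 222. With the log2 of the mean FPKM in place of the mean log2, the RM1-1 count higher was 1210 and the stromal median 3.79. The pseudocount and the thresholds act on low values and on size by construction, and for the log2 of the mean the cause was not tested. With upper-quartile scaling the median over all genes shifted by 0.12, and 766 genes were higher and 629 lower. No list median or named gene with a difference of at least 2 changed sign under any of these settings. Leaving out 1 of the 26 cells gave 685 to 787 genes higher and 699 to 760 lower. For limma, the line as a replicate block gave 350 higher and 407 lower, and leaving out 1 sample gave 367 to 907 higher and 441 to 712 lower; for the loss of calls the cause was not tested. No paired analysis was possible for the cells because their column headings carry no cell number and the comparison has no test. Unknown depth leaves genes near 0 without a detection limit, and with 1 sample per group the spread between animals or cultures is unknown.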

Other observations

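X-linked genes, looked at after their values were seen, stood lower in the testis cells than autosomal genes did. Of 248 past the filter 62 were lower (25%) and 22 higher (8.87%), against 659 of 7524 autosomal genes lower (8.76%) and 694 higher (9.22%). The median difference was -0.90 for X-linked and -0.20 for autosomal genes, and the medians of the 19 autosomes ran from -0.45 to 0.03. Per cell, the mean of X-linked minus that of autosomal genes on the log2 scale was -0.26 to 0.25 in the 20 RM2-1 testis cells (median -0.06), and 0.44 to 0.81 in the 6 RM2-1 AdESC cells (median 0.58), with no overlap. It was -0.11 to 0.05 in the 4 RM1-1 testis cells, -0.14 to 0.03 in the 4 RM2-1 lung cells and 0.51 to 0.66 in the 4 RM1-1 AdESC cells.

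Hprt, an X-linked gene of purine salvage that most cells use, was 0 in all 20 RM2-1 testis cells, against 137, 161, 167, 181, 188 and 189 FPKM in the RM2-1 AdESC cells. In the whole table it was at most 0.144 FPKM in the 63 differentiated cells, 59 of them at 0, and at least 67.0 FPKM in the 24 AdESC cells. How the mouse and rat values of this or any other gene were joined is not given in the sources used here. The part of this joining in the zeros was not tested, and they are not read as a change in expression.

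Of the 4 cells labelled as RM2-1 lung, 2 held genes of steroid-making cells that the 20 testis-labelled cells lacked. Cyp11a1 did not pass 0.45 FPKM in the 20 testis cells and was at 0, 0, 1868 and 2242 FPKM in the lung cells. The inhibin subunit Inha was 0 in the 20 testis cells and at 0, 0, 176 and 216 FPKM in the lung cells. Star reached 119 FPKM in a testis cell and 392 FPKM in a lung cell.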
